A study of Mus musculus with 63 samples.

Results

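The brain extracellular matrix genes Hapln1, Hapln4, Acan, Ncan, Bcan, Vcan, Tnr, Tnc and Cspg5 were followed through all 63 libraries. The 9 members are a list of symbols that uses no measured value as a criterion, drawn up with earlier results of these data known, and each symbol matched 1 annotated gene among the 55291 gene symbols of the count tables. All 9 passed the filter on low counts in each of the 20 comparisons.

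A perineuronal net is a condensed coat of matrix around the soma and proximal dendrites of certain neurons, in the hippocampus above all parvalbumin interneurons. Hyaluronan chains form its backbone, the chondroitin sulfate proteoglycans called lecticans bind those chains with their N-terminal domain, link proteins lock that bond, and tenascin-R ties the C-terminal ends of several lecticans together. The same molecules also occur in the looser matrix between cells, where astrocytes and oligodendrocyte precursors make much of it, and reactive astrocytes are known to deposit proteoglycans and tenascin-C where axons degenerate.

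The libraries came from entorhino-hippocampal tissue cultures, which were made from mouse pups at postnatal day 3 to 5 and grown for at least 18 days in vitro. Wildtype cultures (Synpo+/+) were from C57BL/6J mice, and the libraries labelled Synpo-/- were from the synaptopodin-deficient strain B6.129-Synpotm1Mndl/Dllr, which was back-crossed to C57BL/6J. Synaptopodin is an actin-binding protein of the spine apparatus. In the entorhinal cortex lesion (ECL) the entorhinal cortex was cut off from the hippocampus, which removes the perforant path input to the dentate gyrus (DG) and CA3, and RNA was taken at 3 days post lesion (3 dp ECL). The regional experiment sequenced the isolated DG or CA3 area of 1 culture per library. Its groups were Synpo+/+ CA3 (2 control, 3 ECL), Synpo+/+ DG (4 control, 7 ECL), Synpo-/- CA3 (6 control, 6 ECL) and Synpo-/- DG (7 control, 4 ECL). In the synaptopodin co-immunoprecipitation (Synpo-coIP), 5 or 6 whole cultures were pooled per preparation, an anti-synaptopodin antibody pulled down synaptopodin with the RNA held in its complexes, and RNA of the cleared lysate was sequenced as input. It held 5 coIP and 5 input libraries from Synpo+/+ control cultures, 5 and 5 from Synpo+/+ cultures at 3 dp ECL, and 2 and 2 labelled Synpo-/-, whose labels name no lesion.

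Total counts ran from 14055930 to 46043990 in the 39 regional libraries and from 11601154 to 53682143 in the 24 coIP and input libraries. The targeted gene did not set the genotypes apart in the direction of its label: Synpo had 40.5 ± 6.18 CPM (counts scaled to library size; SD, n = 6) in CA3 controls labelled Synpo-/- and 25.9 ± 0.0618 (n = 2) in Synpo+/+. The exons behind a gene's count are not recorded, and genotypes here are those of the labels. Prox1, the transcription factor that marks dentate granule cells, had medians of 147 to 189 CPM in the 4 DG groups and lay between 12.7 and 44.0 CPM in the CA3 libraries. The library labelled Synpo+/+ DG ECL replicate 5 held 15.5 CPM, in the range of CA3. It stood apart from its label, and values without it are given beside the results that it enters.

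The 4 lecticans and the 4 link proteins of the mouse genome lie in neighbouring pairs. In the GENCODE M25 annotation of GRCm38, Hapln1 (chr13:89539796-89611652, + strand) ends 43.7 kb from Vcan (chr13:89655312-89742509, - strand), and Hapln4 (chr8:70083457-70090862, + strand) ends 2.2 kb from Ncan (chr8:70093085-70120873, - strand). Acan (chr7:79053483-79115099, + strand) ends 2 bp from Hapln3 on the other strand, and Bcan (chr3:87987531-88000230, - strand) lies 21.5 kb from Hapln2. No other protein-coding gene lies within any of the 4 intervals. The remaining members stand alone: Tnr at chr1:159523769-159931729 (+ strand), Tnc at chr4:63959785-64047015 (- strand) and Cspg5 at chr9:110243783-110262576 (+ strand). Reads were counted over all exons of a gene without regard to strand, and Tnr and Tnc share exonic bases with the antisense genes Gm38039 and 8030451A03Rik, so reads there cannot be told apart by strand.

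The promoters of Hapln1 and Tnc are shown because these members had the lowest and the highest lesion value in Synpo-/- DG. Each runs from 250 bases before to 50 bases after a RefSeq start on GRCm38.p6 and is written 5′ to 3′ on the gene's strand, with motif matches in capitals. RefSeq promoters were found for 7 of the 9 members.
Hapln1, chr13:89540386-89540685: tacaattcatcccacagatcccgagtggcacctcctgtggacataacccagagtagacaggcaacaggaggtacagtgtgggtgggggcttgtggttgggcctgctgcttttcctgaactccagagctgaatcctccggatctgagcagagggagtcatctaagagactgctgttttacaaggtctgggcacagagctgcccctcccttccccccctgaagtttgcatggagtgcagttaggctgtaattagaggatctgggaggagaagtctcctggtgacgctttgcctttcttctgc
Tnc, chr4:64046966-64047265: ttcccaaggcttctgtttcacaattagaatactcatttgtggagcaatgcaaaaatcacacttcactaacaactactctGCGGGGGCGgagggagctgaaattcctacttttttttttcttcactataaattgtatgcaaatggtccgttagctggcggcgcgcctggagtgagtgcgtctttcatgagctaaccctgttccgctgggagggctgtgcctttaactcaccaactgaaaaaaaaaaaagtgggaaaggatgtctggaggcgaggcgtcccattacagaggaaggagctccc
The promoters were searched on both strands for 3 motifs of factors that respond to activity or injury: TGANTCA (AP-1), TTCNNNGAA (STAT) and GCGNGGGCG (Egr), where N is any base and no matches overlapped. RefSeq gives 2 starts for Tnc, and the window shown is that of the upstream one. It held 1 Egr match, from base -171 to base -163 before that start (-250 to -242 from the downstream start), and 5.56% of 32817 promoters of this length hold at least 1. The Hapln1 promoter held no match to any of the 3 motifs, which 7.81% (AP-1) and 8.29% (STAT) of promoters hold. A match is a description of letters and not a bound site.

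Levels of different genes can be compared only per exon length, here as TPM, in which counts are divided by exon length and scaled to the same sum in each library. Ncan (neurocan, a brain lectican made by neurons and astrocytes) and Hapln1 (the cartilage link protein, which neurons with nets also make) led the set in every control group of the regional experiment. In Synpo+/+ CA3 controls, Ncan had 43.3 ± 7.33 TPM and Hapln1 30.2 ± 4.14 (SD, n = 2), and their ranges were separate. In Synpo+/+ DG controls Hapln1 came first with 57.7 ± 2.95 TPM and Ncan followed with 47.1 ± 8.77 (n = 4), in this order in 3 of 4 libraries and with ranges that overlapped.

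Hapln4 (the link protein Bral2, made by projection neurons and interneurons) followed in Synpo+/+ CA3 controls with 24.7 ± 3.25 TPM and lay behind 5 other members in DG controls with 9.26 ± 0.732. Bcan (brevican, a lectican of astrocytes and oligodendrocyte precursors) had 18.2 ± 1.89 TPM in CA3 and 14.8 ± 2.09 in DG. Cspg5 (neuroglycan C, a transmembrane chondroitin sulfate proteoglycan) had 10.6 ± 0.796 and 18.3 ± 2.92 TPM, and Tnr (tenascin-R) 9.94 ± 0.872 and 9.81 ± 0.701. The ranges of Cspg5 and Tnr overlapped in CA3, as did those of Cspg5 and Bcan and of Tnr and Hapln4 in DG.

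Vcan (versican), Tnc (tenascin-C) and Acan (aggrecan, the lectican that is the usual marker of mature nets) closed the order in both regions. Acan had 0.717 ± 0.167 TPM in Synpo+/+ CA3 controls and 0.712 ± 0.205 in DG controls, from 16 to 68 counts in any regional library. Small differences in Acan were thus not detectable at this depth.

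**Figure D1:**
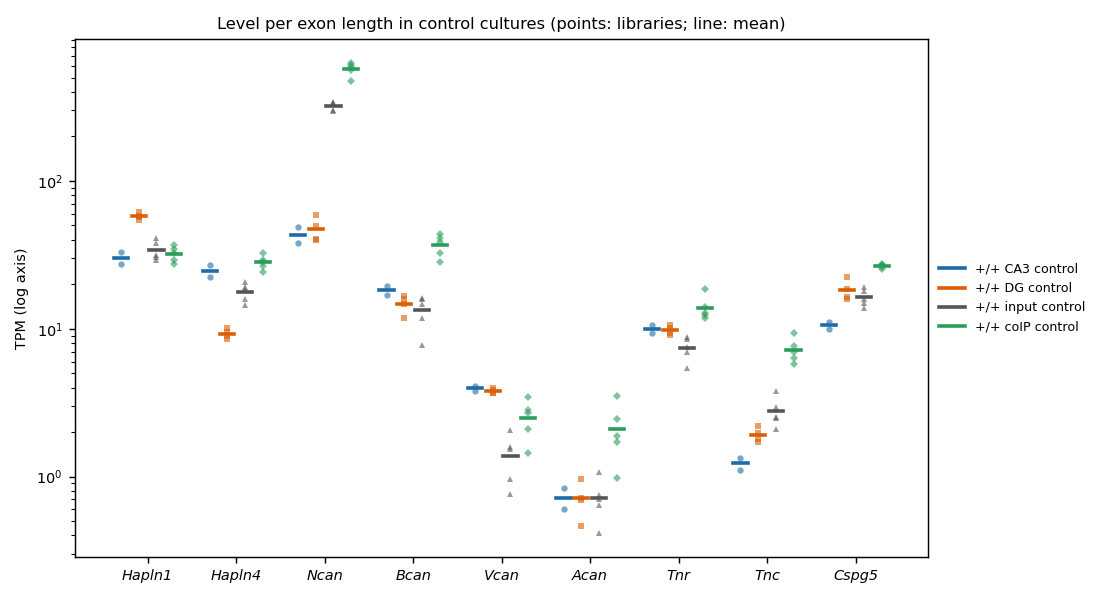
TPM (log axis) of the 9 genes in the 4 kinds of Synpo+/+ control library; each point is a library and each line a group mean. Ncan and Hapln1 lead in CA3 and DG, Acan is lowest in all 4, and Ncan stands at 323 TPM in input and 572 TPM in coIP.

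Whole-culture input libraries of the coIP experiment held far more Ncan. Its mean CPM in Synpo+/+ control input was 773 against 116 over the Synpo+/+ control CA3 and DG libraries, a ratio of 6.66, which exceeded that of 98.8% of 14934 genes with over 1 CPM in both. The 5 input libraries lay between 728 and 814 CPM and the regional controls between 98.4 and 144. Vcan went the other way, with 6.54 CPM in input and 19.7 in the regional libraries. Of 2 astrocyte markers, Gfap, the intermediate filament, was also higher in input: its lowest input library held 10935 CPM and its highest Synpo+/+ regional control 1256. Aqp4 was not, with a median of 152 CPM in Synpo+/+ control input, 177 in CA3 and 174 in DG controls. Both sets were normalised separately and came from different experiments, tissue and lysis, which cannot be told apart, and this ratio was not tested.

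The regional libraries show where along the hippocampal circuit each gene is high. Hapln4 was higher in CA3, and Hapln1, Tnc and Cspg5 were higher in DG. In Synpo+/+ control cultures 3 of the 9 genes passed the test against 5.39% of all genes tested, and in Synpo-/- controls 5 of 9 did against 25.5%. An adjusted p under 0.05 from edgeR's quasi-likelihood test over all genes counts as passing throughout.

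Hapln4 had 34.1 and 37.98 CPM in the 2 Synpo+/+ CA3 controls and 11.4, 11.9, 12.6 and 13.7 CPM in the 4 DG controls. The groups did not overlap, and the log2 fold change of DG over CA3 was -1.53 (SE 0.150, adjusted p 4.12e-05). In Synpo-/- controls it ranged from 43.2 to 59.4 CPM (median 47.0) in 6 CA3 libraries and from 7.41 to 19.2 CPM (median 12.1) in 7 DG libraries, a log2 fold change of -1.86 (SE 0.153, adjusted p 4.29e-08). DG thus held 0.347 and 0.276 of the CA3 level.

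Hapln1 ran opposite to Hapln4. Its 2 Synpo+/+ CA3 controls had 62.6 and 70.2 CPM and its 4 DG controls 110, 115, 116 and 123 CPM, without overlap (log2 fold change 0.82, SE 0.136, adjusted p 0.00221). Without CA3 control replicate 2 this value was 0.73 and did not pass (adjusted p 0.0563). In Synpo-/- controls 74.1 to 93.6 CPM (median 78.4) in CA3 faced 123 to 230 CPM (median 145) in DG (1.05, SE 0.116, adjusted p 1.48e-06). Hapln1 and Hapln4, the link proteins of 2 different pairs, were therefore ordered oppositely between the regions. Their neighbours were not: the log2 fold change of Ncan was -0.00 (SE 0.175) in Synpo+/+ and -0.07 (SE 0.0921) in Synpo-/- controls, and that of Vcan -0.18 (SE 0.151) and 0.19 (SE 0.120), none of which passed the test.

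Tnc, a matricellular protein of immature astrocytes and their precursors, had 2.63 to 3.33 CPM in Synpo-/- CA3 controls and 4.58 to 9.29 CPM in DG controls, without overlap (log2 fold change 1.11, SE 0.178, adjusted p 1.12e-04). In Synpo+/+ controls the value between 2 CA3 and 4 DG libraries was 0.53 (SE 0.244, adjusted p 0.278) and did not pass. Cspg5 was higher in DG of both genotypes, by 0.67 (SE 0.159, adjusted p 0.0228) and 0.43 (SE 0.0820, adjusted p 5.65e-04). The Synpo+/+ call of Cspg5 was lost without CA3 control replicate 1 (0.70, adjusted p 0.108) or 2 (0.64, adjusted p 0.190) and without DG control replicate 1 (0.57, adjusted p 0.0579). Bcan was lower in DG of Synpo-/- controls (-0.31, SE 0.0810, adjusted p 0.00754) and had -0.41 (SE 0.163, adjusted p 0.194) in Synpo+/+. Acan and Tnr did not pass in either genotype.

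**Figure D2:**
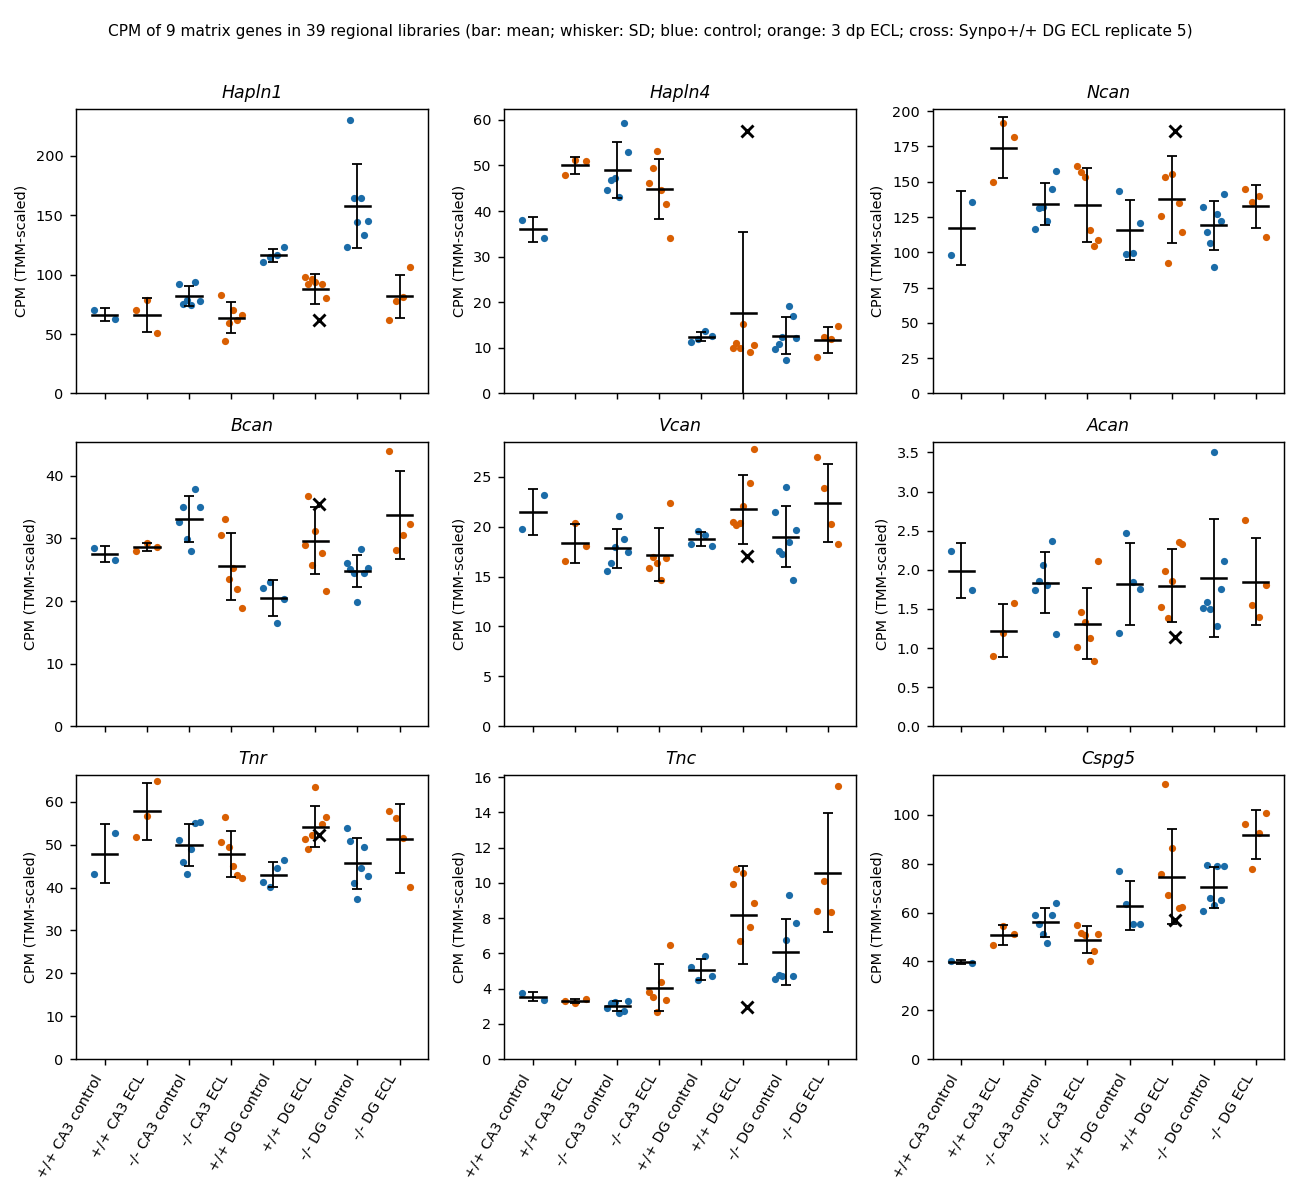
CPM of the 9 genes in the 39 regional libraries by genotype, region and lesion, 1 panel per gene; points are libraries, bars means and whiskers SD, and the cross is Synpo+/+ DG ECL replicate 5. Hapln4 is high in CA3 groups and in that library, Hapln1 is highest in DG controls of both genotypes, and the whisker of Hapln4 in Synpo+/+ DG ECL runs below 0 because its SD (17.7 CPM) is about the size of its mean (17.6 CPM).

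At 3 dp ECL the regional order held for Hapln4, Tnc and Cspg5. In Synpo-/- libraries 3 of 9 genes passed (13.6% of all genes): Hapln4 at -1.91 (SE 0.164, adjusted p 3.49e-06), Tnc at 1.38 (SE 0.238, adjusted p 0.00114) and Cspg5 at 0.92 (SE 0.108, adjusted p 4.92e-05). Hapln1, with 43.9 to 82.5 CPM in CA3 and 62.1 to 106 CPM in DG, overlapped between the regions and had 0.37 (SE 0.163, adjusted p 0.165).

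In Synpo+/+ ECL libraries the count turned on 1 library. With all 7 DG libraries 1 of 9 genes passed (2.05% of all genes), Tnc at 1.37 (SE 0.327, adjusted p 0.0459), which was lost without any 1 of the 9 other libraries (adjusted p 0.0789 to 0.200). Without replicate 5, 5 of 9 passed (19.8% of all genes): Hapln4 at -2.14 (adjusted p 7.53e-09), Tnc at 1.495 (1.41e-05), Cspg5 at 0.65 (0.00681), Hapln1 at 0.52 (0.00796) and Ncan at -0.39 (0.0456). That library held 57.6 CPM of Hapln4 against 9.09 to 15.3 CPM in the other 6.

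**Figure D3:**
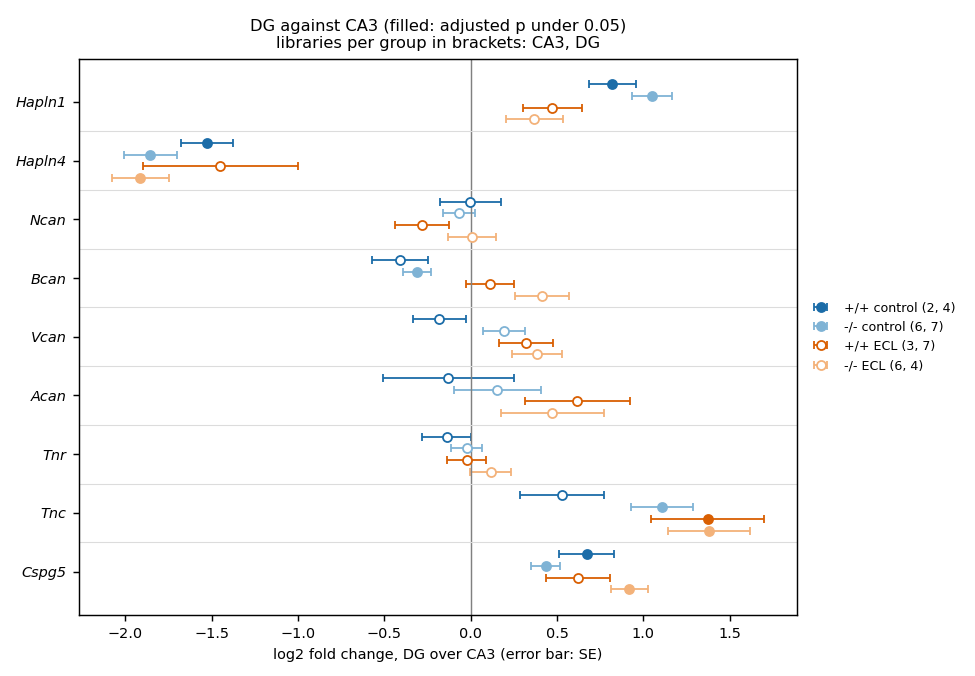
Log2 fold change of DG over CA3 for the 9 genes in the 4 regional settings, with SE; filled symbols have an adjusted p under 0.05. Hapln4 lies between -1.91 and -1.45 in all 4, and Tnc, Cspg5 and Hapln1 lie above 0 in all 4.

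The regions also differed in their cells, which a bulk library records together with the level per cell: fewer cells of a type and less RNA per cell cannot be told apart. In Synpo-/- controls all 6 granule cell markers were higher and 5 of 6 CA3 pyramidal markers lower in DG, as were 8 of 8 oligodendrocyte markers, 5 of 7 pan-neuronal markers and 5 of 10 astrocyte markers. The summed oligodendrocyte markers ran from 1629 to 2639 CPM in CA3 and from 440 to 1387 CPM in DG. Of 10 interneuron markers 4 were higher (Gad1, Gad2, Sst and Vip) and 1 lower (Kcnc2), and their summed level ran from 748 to 1025 CPM in CA3 and from 998 to 1273 CPM in DG. Of 7 fibroblast and vessel markers 2 were lower and of 8 microglial markers 1 was. The part of these cell markers in the regional differences was not tested.

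Genes that make, cut or bind these matrix molecules are read here against the 13.1% of all genes higher and 12.5% lower in DG of Synpo-/- controls. There 5 of 21 tested genes for chondroitin sulfate synthesis were higher and 5 lower in DG. Chsy3, a chondroitin synthase, led the first (log2 fold change 2.81, SE 0.240) and Ust, which sulfates uronic acid, the second (-1.26, SE 0.100). Of 15 genes of the hyaluronan list 2 were higher, Cemip, which degrades hyaluronan, by 2.14 (SE 0.154), and none lower. Of 24 proteases and inhibitors 4 were higher (Mmp16 by 0.72, SE 0.0772) and 5 lower (Adamts9 by -1.21, SE 0.125). Of 18 receptors and ligands 7 were higher and 4 lower, with Ptprd, a receptor phosphatase, at 0.96 (SE 0.0741) and its relative Ptprs, a receptor for chondroitin sulfate, at -0.61 (SE 0.0770). Of 26 other matrix genes 6 were higher and 5 lower, with Reln at 1.88 (SE 0.166) and Spock1 (testican) at -1.58 (SE 0.150). All of these had adjusted p-values of 7.95e-06 or less, and in Synpo+/+ controls Chsy3, Cemip, Mmp16, Ptprd, Reln, Ust and Spock1 passed in the same directions.

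Hapln1 fell in the denervated DG. In Synpo+/+ its 4 control libraries had 110, 115, 116 and 123 CPM, and the 7 lesioned ones ranged from 62.0 to 98.1 CPM (median 92.5). The groups did not overlap and the log2 fold change was -0.43 (SE 0.125, adjusted p 0.0387). Without replicate 5 the lesioned libraries ranged from 80.7 to 98.1 CPM and the value was -0.37 (adjusted p 0.00973). In Synpo-/- the 7 control libraries ranged from 123 to 230 CPM (median 145) and the 4 lesioned ones had 62.1, 77.7, 81.3 and 106 CPM, again without overlap (-0.99, SE 0.166, adjusted p 0.00146), so the lesioned level was 0.503 of the control level. This call held in all 18 alternative fits, whereas the Synpo+/+ call was lost in 7 of 18. These included the fits without control replicate 1, 2, 3 or 4 (-0.45 to -0.41, adjusted p 0.0596 to 0.105) and without ECL replicate 4 (-0.44, adjusted p 0.0654).

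The difference between the genotypes in this response was -0.60 (SE 0.220) and did not pass (adjusted p 0.478, and 0.595 without replicate 5). The comparison reads the same control and lesioned libraries as the values above. Hapln1 in Synpo-/- DG controls exceeded that in Synpo+/+ DG controls by 0.42 (SE 0.138, adjusted p 0.222), which did not pass either. In CA3 the lesion left Hapln1 at -0.10 (SE 0.185, adjusted p 0.772) in Synpo+/+ and -0.35 (SE 0.119, adjusted p 0.533) in Synpo-/-. In whole-culture input it had 60.8, 61.1, 62.2, 73.7 and 76.1 CPM in controls and 48.9, 50.8, 52.0, 52.3 and 65.2 CPM after lesion (-0.32, SE 0.0973, adjusted p 0.0722), and only the highest lesioned library reached into the control range.

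Tnc, Bcan, Cspg5 and Tnr had positive lesion values in DG of both genotypes. Across all genes 12.2% were called in Synpo+/+ DG and 8.53% in Synpo-/- DG, against 2 of 9 and 4 of 9 members. Bcan passed in both: 16.5, 20.3, 22.1 and 23.1 CPM in Synpo+/+ controls stood against 21.7 to 36.8 CPM (median 28.9) after lesion (0.50, SE 0.139, adjusted p 0.0314; 0.44, adjusted p 0.0372 without replicate 5), and 19.9 to 28.3 CPM (median 25.2) against 28.2, 30.5, 32.4 and 44.0 CPM in Synpo-/- (0.40, SE 0.118, adjusted p 0.0438). The ranges overlapped in both. The Bcan call was lost in 8 of 18 alternative fits in Synpo+/+, among them those without control replicate 2, 3 or 4 or ECL replicate 1, 2, 4 or 6 (0.40 to 0.56, adjusted p 0.0519 to 0.119). In Synpo-/- it was lost in 13 of 18, among them those without control replicate 1, 2, 3, 4, 6 or 7 or ECL replicate 1, 3 or 4, with the lowest value, 0.25 (adjusted p 0.222), without ECL replicate 1.

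Tnc had 4.52, 4.69, 5.21 and 5.86 CPM in Synpo+/+ DG controls and 2.95 to 10.8 CPM (median 8.87) after lesion, a log2 fold change of 0.66 (SE 0.271, adjusted p 0.108). The lowest lesioned value was replicate 5. Without it the other 6 ranged upward from 6.71 CPM, and the value was 0.80 (adjusted p 0.00408). In Synpo-/- DG 4.58 to 9.29 CPM (median 4.75) faced 8.37, 8.39, 10.1 and 15.5 CPM (0.77, SE 0.209, adjusted p 0.0293). That call was lost without control replicate 1, 3 or 6 (adjusted p 0.0550 to 0.0622) and without ECL replicate 4 (0.55, adjusted p 0.139). Cspg5 rose in Synpo-/- DG by 0.34 (SE 0.100, adjusted p 0.0431) and had 0.22 (SE 0.167, adjusted p 0.356) in Synpo+/+ and 0.26 (adjusted p 0.234) there without replicate 5. The Cspg5 call was lost in 11 of 18 alternative fits, 7 of which left out 1 library (control replicate 1, 3, 4 or 6, ECL replicate 1, 3 or 4; adjusted p 0.0685 to 0.124).

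Tnr separated the groups in Synpo+/+ DG, with 40.1 to 46.4 CPM in controls and 49.0 to 63.4 CPM after lesion, at 0.31 (SE 0.101, adjusted p 0.0563). It passed without replicate 5 (0.30, adjusted p 0.0396). In total 4 of 9 members were then called (13.8% of all genes): Hapln1, Bcan, Tnr and Tnc. Ncan, Vcan and Acan did not pass in DG of either genotype, with values between -0.09 and 0.22 (0.06 to 0.23 in Synpo+/+ without replicate 5). Hapln4, at 0.48 (SE 0.436) in Synpo+/+ DG, had -0.21 without replicate 5 and passed in neither fit.

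**Figure D4:**
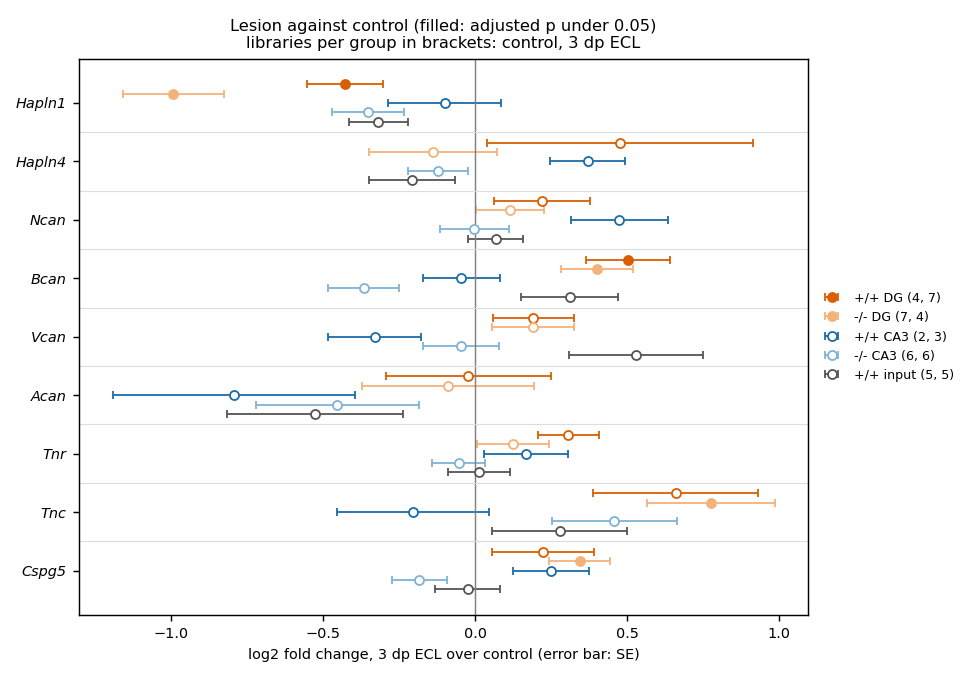
Log2 fold change of 3 dp ECL over control for the 9 genes in DG, CA3 and whole-culture input, with SE; filled symbols have an adjusted p under 0.05. Hapln1 lies below 0 in all 5 comparisons and passes in DG of both genotypes; Bcan is above 0 in DG and input and below 0 in CA3.

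No member passed in CA3 or in whole-culture input. The shares of all genes called there were 1.78% (Synpo+/+ CA3), 0.0770% (Synpo-/- CA3) and 5.61% (Synpo+/+ input). Unadjusted p-values under 0.05 (edgeR) were found for 2, 3 and 2 members. Of all genes tested, 5348 of 22340, 1510 of 20772 and 3493 of 17951 had such values. In Synpo+/+ CA3 the highest values were those of Ncan (0.47, SE 0.159, adjusted p 0.121), Hapln4 (0.37, SE 0.124, adjusted p 0.121) and Cspg5 (0.25, SE 0.126, adjusted p 0.257). Hapln4 had 34.1 and 37.98 CPM in controls and 47.9, 51.0 and 51.2 CPM after lesion. Acan had the lowest value (-0.79, SE 0.398, adjusted p 0.255). In Synpo-/- CA3 Hapln4, Ncan and Cspg5 had values of -0.12, -0.00 and -0.18. The genotypes differed in this response by -0.52 (SE 0.188, adjusted p 0.188) for Hapln4, -0.50 (SE 0.225, adjusted p 0.261) for Ncan and -0.46 (SE 0.172, adjusted p 0.194) for Cspg5. No member passed that test in CA3, where 0% of genes were called, or in DG, where 0.00381% were (0.00385% without replicate 5). By unadjusted p under 0.05, edgeR gave 3 members in CA3 (4589 of 26821 genes) and 1 in DG (2730 of 26245 genes).

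The lesion response of Bcan differed between the regions in libraries labelled Synpo-/-. It went from 28.0 to 37.9 CPM (median 33.8) down to 18.9 to 33.0 CPM (median 24.4) in CA3, at -0.37 (SE 0.117, adjusted p 0.512), while it rose in DG. The difference of DG over CA3 was 0.75 (SE 0.179, adjusted p 0.0327), and Bcan was the only member of 9 to pass, against 1.12% of all genes. The call was lost in 8 of 30 alternative fits, those without CA3 control replicate 2 or 5, CA3 ECL replicate 3, 4 or 5, DG control replicate 3 or 4 or DG ECL replicate 1 (0.61 to 0.73, adjusted p 0.0515 to 0.112). In the same comparison 5 of 10 astrocyte, 4 of 8 microglial and 2 of 8 oligodendrocyte markers were higher, and their part in it was not tested. Cspg5 had 0.51 (SE 0.142, adjusted p 0.0733) and Hapln1 -0.66 (SE 0.218, adjusted p 0.167). In Synpo+/+ no member passed (0% of all genes, and 0.0109% without replicate 5). There 1 member had an unadjusted p under 0.05 in edgeR, as had 1240 of 27783 genes. Bcan had 0.50 (SE 0.227, adjusted p 0.9995) and, without replicate 5, 0.45 (adjusted p 0.680).

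Control cultures of the 2 genotypes did not differ in any member by the test, against 0.00413% of all genes called in CA3 and 0.0166% in DG. By unadjusted p under 0.05, edgeR gave 2 members in each region, beside 3959 of 24203 genes in CA3 and 3746 of 24143 in DG. Cspg5 in CA3 had 39.3 and 40.4 CPM in Synpo+/+ and 47.4 to 63.7 CPM in Synpo-/- (0.43, SE 0.120, adjusted p 0.131).

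Glial markers moved with the lesion in DG. Of 10 astrocyte markers 7 were higher in Synpo+/+ and 8 in Synpo-/-, and their summed level went from 4523 to 5307 CPM up to 7096 to 9156 CPM and from 4848 to 5750 CPM up to 7515 to 9675 CPM. Of 8 microglial markers 8 and 6 were higher, of 7 oligodendrocyte precursor markers 4 and 3, and of 8 oligodendrocyte markers 1 and 1. Of all genes 7.86% were higher and 4.31% lower in Synpo+/+ DG, and 5.17% and 3.36% in Synpo-/- DG. Without replicate 5, 8 astrocyte, 8 microglial, 4 precursor and 2 oligodendrocyte markers were higher in Synpo+/+ (8.46% of all genes higher and 5.30% lower), and the summed astrocyte markers kept their range, since that library held 7841 CPM. Its summed oligodendrocyte markers stood at 2373 CPM against 703 to 1058 CPM in the other 6. In Synpo-/- CA3, where Bcan was nominally lower, no astrocyte or microglial marker passed and 1 oligodendrocyte marker was lower. No marker of these lists was at 0 in all libraries of a group. Their part in the values of Bcan, Tnc and Cspg5 was not tested.

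Markers of the neurons that carry nets did not all follow Hapln1. Of 10 interneuron markers none passed in Synpo+/+ DG, and Gad1, an enzyme of GABA synthesis, was the 1 that fell in Synpo-/- DG (-0.44). Pvalb ranged from 25.3 to 102 CPM in Synpo+/+ DG controls and from 47.7 to 83.8 CPM after lesion (from 48.7 CPM without replicate 5), and from 30.1 to 79.8 and 50.7 to 101 CPM in Synpo-/-. Of the granule cell, CA3 pyramidal, pan-neuronal and fibroblast lists none passed in either DG comparison. Without replicate 5 no interneuron marker passed in Synpo+/+ DG (Gad1 had -0.26, adjusted p 0.0806), and 2 of 6 granule cell markers were higher. These were Prox1 (0.34, adjusted p 0.0441) and C1ql2 (0.47, adjusted p 0.0323). The median log2 fold change of the 10 interneuron markers was -0.05 in Synpo+/+ DG, -0.19 in Synpo-/- DG and -0.46 in input. Over all genes it was -0.00, 0.01 and -0.00. In input 1 of the 10 was called lower, and Hapln1 had -0.32 (adjusted p 0.0722). The part of these cells in the fall of Hapln1 was not tested.

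Counts of other matrix genes in the lesioned DG are read against the same shares of all genes. Of 24 proteases and inhibitors 6 were higher in Synpo+/+ and 5 in Synpo-/-, with none lower. Timp1, an inhibitor of metalloproteinases, rose by 1.59 (SE 0.246, adjusted p 0.00118) in Synpo+/+, and Timp3 by 0.57 (SE 0.110, adjusted p 0.00430) in Synpo-/-. Of the hyaluronan genes 5 of 13 and 3 of 15 were higher, with the hyaluronan receptor Cd44 first in both (0.56, SE 0.104 and 0.56, SE 0.0985). Of 18 receptors and ligands 2 were higher and 1 lower in either genotype. The proteoglycan Sdc4 led in Synpo+/+ (0.76, SE 0.148), Ptprs in Synpo-/- (0.34, SE 0.0903), and Ptprd was the one that fell (-0.41, SE 0.128 and -0.42, SE 0.0848).

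Of 26 other matrix genes 1 was higher in Synpo+/+, Sparc (0.68, SE 0.137), and 4 in Synpo-/-, led by Thbs4 (1.26, SE 0.282), a thrombospondin. In Synpo+/+ 3 of 18 receptors and ligands and 1 of 26 other matrix genes were thus called, beside 12.2% of all genes. In Synpo-/- 3 of 18 and 4 of 26 were, beside 8.53%. These counts are small, and whether any list differs from all genes was not tested. None of 21 chondroitin sulfate genes passed in DG of either genotype, and in Synpo+/+ CA3 Chst12, a sulfotransferase, did (1.37, SE 0.288, adjusted p 0.0468). In input, Stab1, a scavenger receptor placed in the hyaluronan list, was higher (0.82, SE 0.171) and Reln lower (-0.51, SE 0.140). The median log2 fold change of the 9 members was 0.22 in Synpo+/+ DG and 0.13 in Synpo-/- DG, against -0.00 and 0.01 over all genes tested. Without replicate 5 the Synpo+/+ counts were 7 proteases and inhibitors, 5 hyaluronan genes, 2 receptors and ligands, 2 other matrix genes (Sparc and Thbs4) and 1 chondroitin sulfate gene (Chst11) higher, and Ptprd lower. Timp1 then had 1.59, Cd44 0.57, Sdc4 0.70, Sparc 0.58 and Ptprd -0.38, all of which passed, and the members' median was 0.23 against -0.03 over all genes.

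Across the 39 regional libraries, members were correlated in both directions. The highest Pearson r of log2 CPM between 2 members was 0.764 (Tnc and Cspg5) and the lowest -0.767 (Hapln4 and Tnc), and Hapln1 and Hapln4 had -0.614 (0.769, -0.758 and -0.599 without Synpo+/+ DG ECL replicate 5). These libraries share regions, genotypes and lesion states, so the values are a description. Among 8414 genes with a mean normalised count over 300, the gene most like Hapln1 was Gad1 (r = 0.921, and 0.776 within groups). Hapln4 was followed most closely by Synj1 (0.983), Prkca (0.981) and Sh3gl2 (0.981). Bcan was most like Acsbg1 (0.894), Cspg5 like Cdc42ep4 (0.900), Tnc like Igfbp5 (0.882), Tnr like Smarcc2 (0.817), Ncan like Cluh (0.802), Vcan like Fat1 (0.716) and Acan like Clcn5 (0.618). Without replicate 5 the same gene came first for each of the 9 members, with r from 0.602 to 0.982. Within groups these 9 pairs had r from 0.591 to 0.947 with that library and from 0.450 to 0.858 without it. The lowest was Tnc with Igfbp5, which went from 0.718 to 0.450.

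In the Synpo-coIP, 8 of the 9 members passed against input in either Synpo+/+ group, 7 higher and Hapln1 lower. Enrichment was common there: 55.0% of all genes were called in control cultures, 29.6% higher and 25.5% lower in the coIP, and 58.3% at 3 dp ECL, 30.5% higher and 27.8% lower. In the libraries labelled Synpo-/-, 5 of 9 members (Bcan, Tnc, Ncan, Cspg5 and Hapln4) were higher and none lower, against 31.4% of all genes called, 15.0% higher and 16.4% lower.

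Bcan was enriched in every preparation. In Synpo+/+ control cultures its 5 inputs had 11.4 to 21.8 CPM (median 19.6) and its 5 coIP libraries 30.5 to 47.7 CPM (median 39.2), with coIP over input ratios of 1.76 to 2.68 within preparations (log2 fold change 1.19, SE 0.167, adjusted p 3.05e-05). At 3 dp ECL the value was 1.17 (SE 0.133, adjusted p 8.92e-06). In Synpo-/- the inputs had 16.5 and 26.8 CPM and the coIP libraries 52.3 and 53.6 CPM (1.26, SE 0.199, adjusted p 8.43e-04). The same gene was thus enriched in the libraries labelled as lacking synaptopodin.

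Tnc followed closely, with 1.11 (SE 0.171) in Synpo+/+ control cultures, 1.02 (SE 0.234) at 3 dp ECL and 1.18 (SE 0.247, adjusted p 0.00392) in Synpo-/-. Acan had 1.26 (SE 0.330, adjusted p 0.00460), 1.21 (SE 0.263, adjusted p 0.00135) and 0.94 (SE 0.350, adjusted p 0.0587), with a coIP over input ratio of at most 3.34 in any preparation. Ncan, the most abundant member here, went from 728 to 814 CPM in input up to 907 to 1273 CPM in the coIP of control cultures (0.54, SE 0.0950, adjusted p 2.20e-04), and had 0.38 (SE 0.160, adjusted p 0.0555) at 3 dp ECL and 0.61 (SE 0.149, adjusted p 0.00886) in Synpo-/-.

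Hapln4, Cspg5 and Vcan had smaller values. In the fits that do not pair each coIP library with its input, several of their calls rested on single libraries. Hapln4 had 0.38 (SE 0.128, adjusted p 0.0216) in control cultures, 0.42 (SE 0.134, adjusted p 0.0156) at 3 dp ECL and 0.44 (SE 0.150, adjusted p 0.0433) in Synpo-/-. Its call was lost in control cultures without input replicate 3, 4 or 5 or coIP replicate 1 or 2 (adjusted p 0.0512 to 0.0668), at 3 dp ECL without input replicate 4 (0.35, adjusted p 0.0510), and in Synpo-/- without any 1 of the 4 libraries (adjusted p 0.0601 to 0.227).

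Cspg5 had 0.42 (SE 0.0942, adjusted p 0.00156), 0.30 (SE 0.119, adjusted p 0.0440) and 0.58 (SE 0.136, adjusted p 0.00736) in the same order. The second call was lost without ECL input replicate 2, 4 or 5 or coIP replicate 1, 3 or 5 (adjusted p 0.0740 to 0.133) and that in Synpo-/- without input replicate 2 (0.50, adjusted p 0.0916). Vcan had 0.59 (SE 0.244, adjusted p 0.0542), 0.54 (SE 0.191, adjusted p 0.0264) and 0.46 (SE 0.187, adjusted p 0.0788). It passed in control cultures without input replicate 5 or coIP replicate 1 or 2 (adjusted p 0.0178 to 0.0500), and its call at 3 dp ECL was lost without input replicate 1 or 4 or coIP replicate 3 or 5 (adjusted p 0.0588 to 0.0711).

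Single libraries also decided calls of Ncan and Acan. Ncan passed at 3 dp ECL without input replicate 5 (0.43, adjusted p 0.0481) or coIP replicate 4 (0.51, adjusted p 0.00241), and its call in Synpo-/- was lost without input replicate 1 (0.44, adjusted p 0.0847). Acan passed in Synpo-/- without input replicate 1 (1.34, adjusted p 0.0317) or coIP replicate 1 (1.12, adjusted p 0.0365).

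Tnr, at 0.62 (SE 0.118) and 0.75 (SE 0.146) in the Synpo+/+ groups, had 0.23 (SE 0.154, adjusted p 0.280) in Synpo-/-. Hapln1 was lower in the coIP in 10 of 10 Synpo+/+ preparations, at ratios from 0.600 to 0.926 (log2 fold change -0.36, SE 0.117 in control cultures and -0.55, SE 0.113 after lesion), and had -0.11 (SE 0.159, adjusted p 0.617) in Synpo-/-. Whether the genotypes differed was tested directly: no member passed (0% of all genes, and no member with an unadjusted p under 0.05 in edgeR), with Hapln1 at -0.29 (SE 0.221, adjusted p 0.831) and Tnr at 0.34 (SE 0.215, adjusted p 0.795) for Synpo+/+ minus Synpo-/-. With 2 coIP and 2 input libraries in Synpo-/-, this test cannot show that the genotypes were alike. Those libraries held 42886994 to 53682143 counts, against 12888443 to 26730691 in the Synpo+/+ control set, so genotype and depth cannot be told apart. The lesion likewise changed no member's enrichment by the test (0% of all genes, none under 0.05 unadjusted in edgeR), with differences between -0.15 and 0.17.

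Coupling each coIP library to the input of its own lysate as a replicate block altered 3 calls. With it 9 of 9 members were called in control cultures (11393 of 18222 genes) and at 3 dp ECL (11376 of 18229 genes). In Synpo-/- 6 of 9 were (7476 of 20892 genes). Vcan passed in control cultures (0.60, adjusted p 0.00100, against 0.0542 without the block), Ncan at 3 dp ECL (0.35, adjusted p 0.0119) and Acan in Synpo-/- (0.95, adjusted p 0.0286). With the block Hapln4 (adjusted p 0.00108 and 0.00282) and Cspg5 (7.10e-05 and 0.00855) also passed in control cultures and at 3 dp ECL. At 3 dp ECL Vcan had an adjusted p of 0.00447. In Synpo-/- Hapln4 (0.0371) and Cspg5 (0.00229) passed and Vcan (0.0683) did not. The Synpo-/- values with the block rest on pairs taken from the preparation number in the titles, with which the "biol rep" numbers of the inputs conflict. The fits that left out 1 library did not use the block.

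Long transcripts were enriched in the coIP, and all 9 members are longer than the median gene tested. In Synpo+/+ control cultures the median exon length was 5537 bp among genes higher in the coIP, 3851 bp among all genes tested and 7469 bp among the members, and 40.1% of the longer and 19.0% of the shorter genes were called higher. With the length trend removed 6 of 9 members stayed past the threshold in control cultures (49.4% of all genes, and 57.5% with the replicate block), 5 at 3 dp ECL (51.4% and 56.5%) and 4 in Synpo-/- (28.1% and 31.8%). Leaving out 1 library of the 4 in Synpo-/- left 3 to 5 members called. With length and GC trends removed 2 of 9 (47.4%), 5 of 9 (48.9%) and 3 of 9 (27.7%) did.

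Bcan and Tnc passed under both corrections in all 3 comparisons. In control cultures Bcan had 1.26 with the length trend removed and 0.79 with length and GC trends removed, and Tnc 0.87 and 0.79. Cspg5, at 0.42 as deposited, had 0.07 and 0.00, Vcan 0.09 and 0.30, and Tnr 0.16 and 0.23, none of which passed. Ncan (0.33), Hapln4 (0.46) and Acan (1.03) passed with the length trend removed. With length and GC trends removed they had 0.11, 0.09 and 0.83 in control cultures and did not pass. At 3 dp ECL Acan (0.76, adjusted p 0.0191), Tnr (0.34, adjusted p 0.0403) and Hapln1 (-0.43, adjusted p 0.00189) did pass with both trends removed. In Synpo-/- Cspg5 did (0.35, adjusted p 0.0498). At 3 dp ECL Cspg5 (-0.06) and Vcan (-0.00) changed sign with the length trend removed, and Cspg5 (-0.13) and Ncan (-0.04) with length and GC trends removed. Hapln1 was lower throughout (-0.48 and -0.28 in control cultures, the latter with adjusted p 0.0602).

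**Figure D5:**
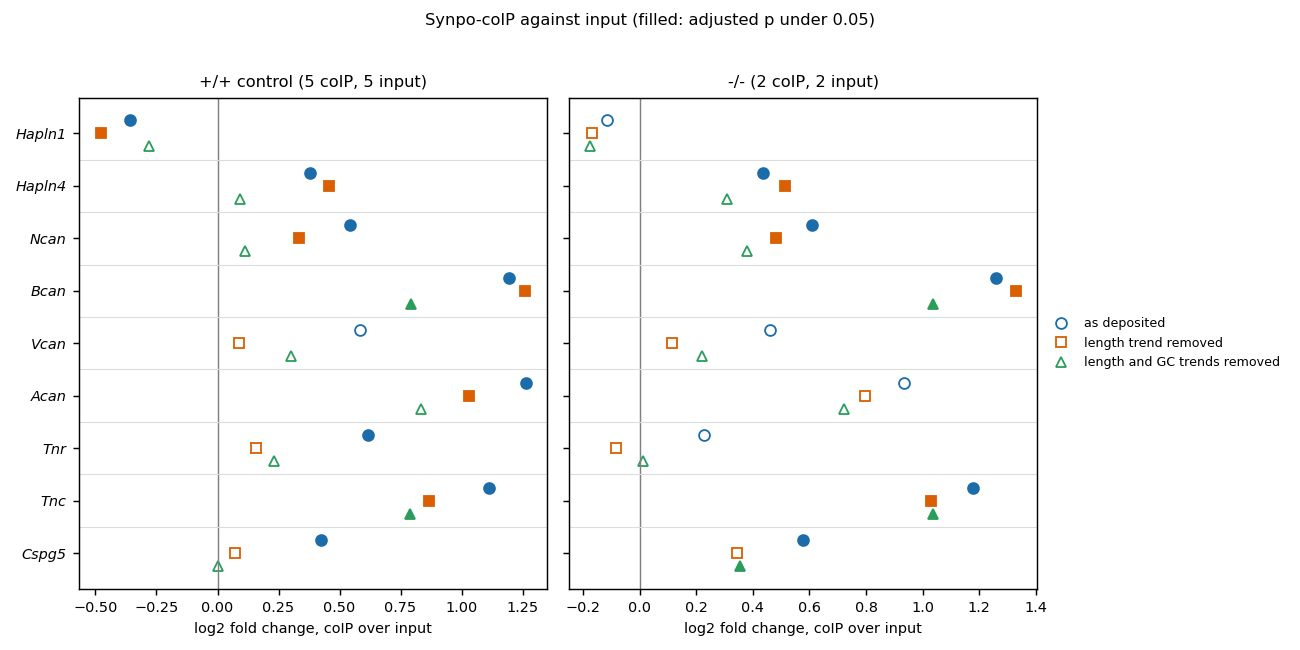
Log2 fold change of Synpo-coIP over input for the 9 genes in Synpo+/+ control and Synpo-/- preparations, as deposited and with length or length and GC trends removed; filled symbols have an adjusted p under 0.05. Bcan and Tnc stay filled in all 3 fits of both panels, and Cspg5, Vcan and Tnr move towards 0. Ncan, Hapln4 and Acan are open in both panels with length and GC trends removed.

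Other matrix genes are read against the 29.6% of all genes higher and 25.5% lower in the coIP of Synpo+/+ control cultures. There 11 of 21 chondroitin sulfate genes, 8 of 23 proteases and inhibitors, 11 of 17 receptors and ligands, 16 of 25 other matrix genes and 3 of 13 hyaluronan genes were higher, and 0, 0, 2, 1 and 0 lower. The shares of proteases and inhibitors and of hyaluronan genes were near that of all genes. Xylt2, which starts the chondroitin sulfate chain, led its list (1.26, SE 0.156), and Agrn (agrin) led the other matrix genes (1.16, SE 0.128). The receptor phosphatase Ptprf had 0.97 (SE 0.0990), Adamts1, which cleaves lecticans, 0.93 (SE 0.135) and Cemip2 0.87 (SE 0.0951), while Ptn, a ligand of chondroitin sulfate, was lower (-0.38, SE 0.125), as was Dcn (-0.37, SE 0.116). Of 8 microglial markers 3, 6 and 5 were lower in the coIP of the control, ECL and Synpo-/- preparations, and of 10 astrocyte markers 4, 3 and 2 were higher. Of the fibroblast and vessel markers tested, 3 of 6, 4 of 5 and 3 of 7 were higher. Their part in the members' values was not tested.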

How the data were processed

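Per the labels and methods, the authors used cutadapt (3.5) for trimming and STAR (2.7.8a) for mapping to mm10 (GRCm38), and libraries with over 60% uniquely mapped reads were kept. They deposited whole-number counts per gene from featureCounts (2.0.1), taken without strand over GENCODE M25 exons. The versions are from the submitters' processing notes of the regional and Synpo+/+ coIP libraries, and those of the Synpo-/- coIP libraries name none. From the deposited counts, TMM-scaled CPM (separately for the regional and the coIP experiment) and TPM over union exon length were computed. Groups were compared with edgeR's quasi-likelihood test (4.0.16, R 4.3.3) on genes kept by filterByExpr, with TMM factors and Benjamini-Hochberg adjustment over all genes tested, called at an adjusted p under 0.05. SE is the log2 fold change over the root of F. Only the groups compared entered each of the 20 fits.

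The 9 members, the 5 matrix lists, the 9 cell marker lists and the tests were chosen with earlier results of these data known. Besides the members, the text names from each matrix list the called gene with the smallest p per direction, and for each member the genes of highest Pearson r. Single cell markers were named after their values were seen. Coordinates are from the deposited GENCODE M25 annotation, and promoters from RefSeq (GRCm38.p6). Alternatives were RLE factors, no filter, DESeq2 (1.42.0), the replicate number as block, lowess offsets against length or GC (span 0.3, genes with a mean count over 50), a mean normalised count over 300, all regional groups in one fit, and leaving out each library. By the paper's methods each coIP and its input share a lysate. Same-numbered Synpo+/+ samples deviated together (r from 0.305 to 0.640 in control and 0.156 to 0.624 in ECL preparations). Synpo-/- libraries were paired by the preparation number in their titles, which for the inputs runs opposite to the "biol rep" number. Their r of 0.087 is necessarily the same for both pairs, since 2 libraries deviate from their mean as mirror images, and is too weak to settle this pairing. The labels do not tie regional numbers to a shared culture or animal. Labels call regional libraries biological replicates and the paper's methods give 1 culture per library, so p-values measure the spread between cultures. Which cultures came from the same animal is not given. The fits were tested on simulated counts with 4-fold changes. Of these, edgeR recovered from 43.5% (region by lesion in Synpo+/+) to 97% (lesion in input). Smaller changes were not simulated.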

Additional observations from a re-analysis of the deposited data

Results flagged for a closer look

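Among 90 checks of the 9 genes in the 10 groups of 4 to 7 libraries, 5 single libraries lay far from the others of their group, each the highest. Chance gives about 1 such library in 20 checks. Hapln4 in Synpo+/+ DG ECL replicate 5 stood at 57.6 CPM against 9.09 to 15.3 CPM in the other 6, and this library also held CA3 levels of Prox1. Hapln1 in Synpo-/- DG control replicate 2 stood at 230 CPM against 123 to 165 CPM in the other 6. Hapln1 in Synpo+/+ input ECL replicate 3 had 65.2 CPM against 48.9 to 52.3 CPM, and without this library the lesion value in input was -0.39 (adjusted p 0.0465, edgeR) against -0.32 (adjusted p 0.0722) with it. Acan in Synpo-/- DG control replicate 4 had 3.499 CPM against 1.28 to 2.12 CPM. Vcan in Synpo-/- CA3 ECL replicate 6 had 22.3 CPM against 14.7 to 17.0 CPM.

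The lesion response of Bcan differed between DG and CA3 in libraries labelled Synpo-/-, by 0.75 on the log2 scale (SE 0.179, adjusted p 0.0327 for the interaction, edgeR). The call was lost in 8 of 30 alternative fits, each of which left out 1 library.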

How the results depend on the processing

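Of 3438 values of single members under the alternatives, 3277 kept their side of the threshold, 3086 of them with the same sign, 109 lost the call, 47 gained it and 5 called values changed sign. The other 191 sign changes were in values that passed in neither fit. The cause of these changes was not tested, except that fits without a library hold fewer samples. The sign changes of called values were in the coIP at 3 dp ECL: with the length trend removed Vcan had -0.0042 and Cspg5 -0.0587, with the replicate block and the length trend removed -0.0089 and -0.0600, and with length and GC trends removed Cspg5 had -0.1259.

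The count of members called moved by more than 1.5 times in these fits, and smaller moves are not listed. The number of all genes called, given below for some fits, moved as well, so a change in these counts is not particular to the members. Without the filter on low counts it was 1 for the lesion in Synpo+/+ CA3, 1 in Synpo+/+ DG, 2 in Synpo-/- DG and 3 for the regions in Synpo+/+ ECL. With RLE factors it was 2 for the lesion in Synpo-/- DG. With DESeq2 it was 1 for the lesion in input, 1 for the genotypes in CA3 controls, 3 for the regions in Synpo+/+ ECL and 2 for region by lesion in Synpo-/-. With the length trend removed it was 1 for the lesion in input (1090 of 17951 genes called, against 1007 with the trend). It was 2 for region by lesion in Synpo-/- (425 of 25435 genes, against 284). For the coIP at 3 dp ECL it was 5 (9377 of 18229 genes, against 10620), and 5 with the replicate block too. With length and GC trends removed it was 2, 5 and 3 for the coIP in control, ECL and Synpo-/- preparations. With a mean normalised count over 300 it was 0 for the regions in Synpo+/+ ECL and 2 for region by lesion in Synpo-/-, and with all regional groups in one fit 3 for the regions in Synpo+/+ ECL.

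The replicate block gave 1 member (Ncan) for the lesion in Synpo+/+ CA3, with 875 of 22340 genes called against 397 without the block. For the lesion in Synpo-/- DG it gave 2 members (662 of 23310 genes, against 1989). For the regions it gave 1 in Synpo+/+ controls (692 of 25656 genes, against 1382) and 5 in Synpo+/+ ECL (5000 of 24029, against 492). The block also added Tnc to the lesion in Synpo+/+ DG (3 members, with 2980 of 23720 genes called against 2886). It added Vcan to the regions in Synpo-/- ECL (4 members, with 4292 of 22767 genes against 3098). The sources used here do not say whether same-numbered regional libraries share a culture. Their correlations ran from -0.348 to 0.434 over all pairs of groups. Between CA3 and DG of Synpo-/- controls they were positive in 6 of 6 pairs (0.068 to 0.434, median 0.273), with 3 of 6 best with their own number, and the block changed no call of a member there. In the coIP the block changed no call of a member other than those of Vcan, Ncan and Acan given above.

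Leaving out 1 library, which in groups of 2 leaves a lone sample assumed to vary like the other group, gave 0 to 4 members for the lesion in Synpo+/+ DG, 1 to 4 in Synpo-/- DG, 0 to 1 in input, 1 to 3 for the regions in Synpo+/+ controls, 0 to 5 in Synpo+/+ ECL, 5 to 5 in Synpo-/- controls and 3 to 4 in Synpo-/- ECL, 0 to 2 for region by lesion in Synpo-/-, and 7 to 8, 5 to 9 and 3 to 5 for the coIP in control, ECL and Synpo-/- preparations. In the other comparisons it was 0 throughout. Over all genes, the regions in Synpo+/+ ECL had 492 calls and 4746 without DG ECL replicate 5. Leaving out 1 library gave 999 to 3338 genes for the lesion in Synpo+/+ DG, 1118 to 1925 in Synpo-/- DG and 358 to 1070 in input. It gave 2118 to 4869 genes for the regions in Synpo-/- ECL and 131 to 401 for region by lesion in Synpo-/-. Depth limits Acan (16 to 68 counts in a regional library) and Tnc (46 to 479) most.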
